A study of Mus musculus with 96 samples.

Results

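The striatum of 16 mice heterozygous for Msh6 was compared: 8 mice that also carried the Q140 knock-in allele of Htt, and 8 that did not. The libraries were chosen by their titles, Het (Q140) KI X Msh6+/- Striatum and Msh6+/- Striatum, and are 16 of the 96 libraries of the series. The whole series holds the corpus striatum and cortex of 48 mice of 6 genotypes (wild type, Q140, and Msh6+/- or Msh6-/- with and without Q140). Every mouse compared here was on a C57BL/6 background and 6 months old, and each group held 4 males and 4 females. The Q140 mice carried 1 knock-in allele, an expanded CAG repeat at the endogenous Htt locus, so the mutant transcript was driven by the promoter of Htt itself in every cell that uses it. Both groups share the heterozygous loss of Msh6, and the comparison therefore gives the difference between mice with and without Q140 on an Msh6+/- background. The first part of the animal number, its prefix, is not explained by the labels. Only the prefixes 18 and 26 were found in both groups, so Q140 and whatever the prefix stands for are only partly separated. RNA was sequenced from strand-marked libraries and deposited as read counts per gene.

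Most neurons of the striatum are GABAergic projection neurons, which lose much of their characteristic expression early in Huntington's disease and in its mouse models. Direct pathway neurons carry the dopamine receptor Drd1 and substance P (Tac1), while indirect pathway neurons carry the dopamine receptor Drd2, the adenosine receptor Adora2a and enkephalin (Penk). The disease is caused by an expanded CAG repeat in HTT, and the repeat lengthens further in somatic cells, above all in striatal neurons. That lengthening depends on DNA mismatch repair, in which MSH6 takes part in recognising base mismatches and MSH3 in recognising small loops. The cross asks how Msh6 dosage bears on the response to the mutant allele.

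The libraries held 14.94 to 21.02 M counts (median 18.76) in Msh6+/- mice and 12.40 to 20.36 M (median 18.98) in Q140 Msh6+/- mice. The mitochondrial share of counts was 5.73 to 6.44% in the first group and 5.63 to 6.72% in the second. Levels are given as CPM, the counts of a gene per M counts of the library on TMM-scaled library sizes, which compares 1 gene between mice but not different genes with each other. On the first principal component of the 48 striatum libraries of all 6 genotypes (23.7% of their variance) the 8 Q140 Msh6+/- mice lay between 11.8 and 17.9 and the 8 Msh6+/- mice between -24.2 and -5.0, and the second (17.1%) divided the sexes. The defining markers of striatum were high in all 16 libraries, among them Penk (1015 FPKM on average in Msh6+/- mice), Ppp1r1b (839 FPKM) and Scn4b (479 FPKM), FPKM being the authors' count per kilobase and per M counts. A few libraries stood apart in single genes. The ribosomal RNA gene Rn18s-rs5 was at 27.9 CPM in Q140 mouse 16-4 against 0.10 to 2.76 CPM in the other 15, the cortical marker Slc17a7 was at 7.95 CPM in Q140 mouse 17-1 against 2.05 to 3.57 CPM, and the summed interferon response genes were at 239 CPM in Q140 mouse 14-1 against 133 to 172 CPM. The results were recomputed without each library in turn, and counts of called list members above 0 that this moved by over 1.5 times are given with the list.

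Htt (ENSMUSG00000029104, GRCm38 chr5:34761740-34912534), the gene that carries the repeat, was at 227 to 248 CPM (median 242) in Msh6+/- mice and at 175 to 235 CPM (median 222) in Q140 Msh6+/- mice. The groups overlapped, and the log2 fold change was -0.14 ± 0.03 (SE; edgeR quasi-likelihood, adjusted p = 0.0018). The counts of the expanded and normal alleles are not separated in the deposited table, so this value does not check which allele a library holds. On the FPKM scale Htt kept its direction but missed the threshold (-0.08, adjusted p = 0.08, limma on log2 FPKM plus 0.1). Msh6 (ENSMUSG00000005370, chr17:87975062-87990892) was at 12 to 15.6 CPM in Msh6+/- mice and at 12.6 to 15.3 CPM in Q140 Msh6+/- mice. Its log2 fold change was 0.01 ± 0.06 (adjusted p = 0.94), with overlapping groups. Msh6 overlaps Fbxo11 on the opposite strand, and since the strand setting of the authors' counting is not given in the sources used here, values of overlapping genes are uncertain wherever they are named.

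Of 17503 genes tested, 2819 (16.1%) were higher and 2596 (14.8%) were lower in Q140 Msh6+/- than in Msh6+/- striatum at an adjusted p below 0.05 (edgeR), together 30.9%. In 1421 genes (8.12%) the values of the 8 mice of 1 group did not overlap those of the other. Most called differences were small, and the larger ones were more often lower. Beyond 1.5-fold, 256 called genes were higher and 390 lower, beyond 2-fold 64 and 112, and beyond 4-fold 9 and 14. The called share grew with expression, from 13.28% in the lowest of 4 equal classes of genes by level to 47.9% in the highest. The split of calls depended on the scale. With the deposited FPKM values, limma called 5141 genes higher and 1749 lower (74.6% of the calls higher, against 52.1% for counts), and the median log2 fold change of all genes was 0.071 in place of 0.014. The FPKM values are scaled to the column total without TMM factors. These factors were 0.9647 to 0.9901 in the Msh6+/- and 1.0046 to 1.0345 in the Q140 Msh6+/- libraries. All counts on the FPKM scale below share this difference in scaling and are not separate checks. No gene was called in opposite directions by the 2 scales. The lists of functional groups and cell type markers used below are described by how many tested members were called in each direction, to be read against 16.1% and 14.8%. List counts on the FPKM scale are to be read against 5141 higher and 1749 lower of 20317 genes. Those with the animal number prefix as a block are to be read against 2089 higher and 2127 lower of 17503 genes.

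**Figure D1:**
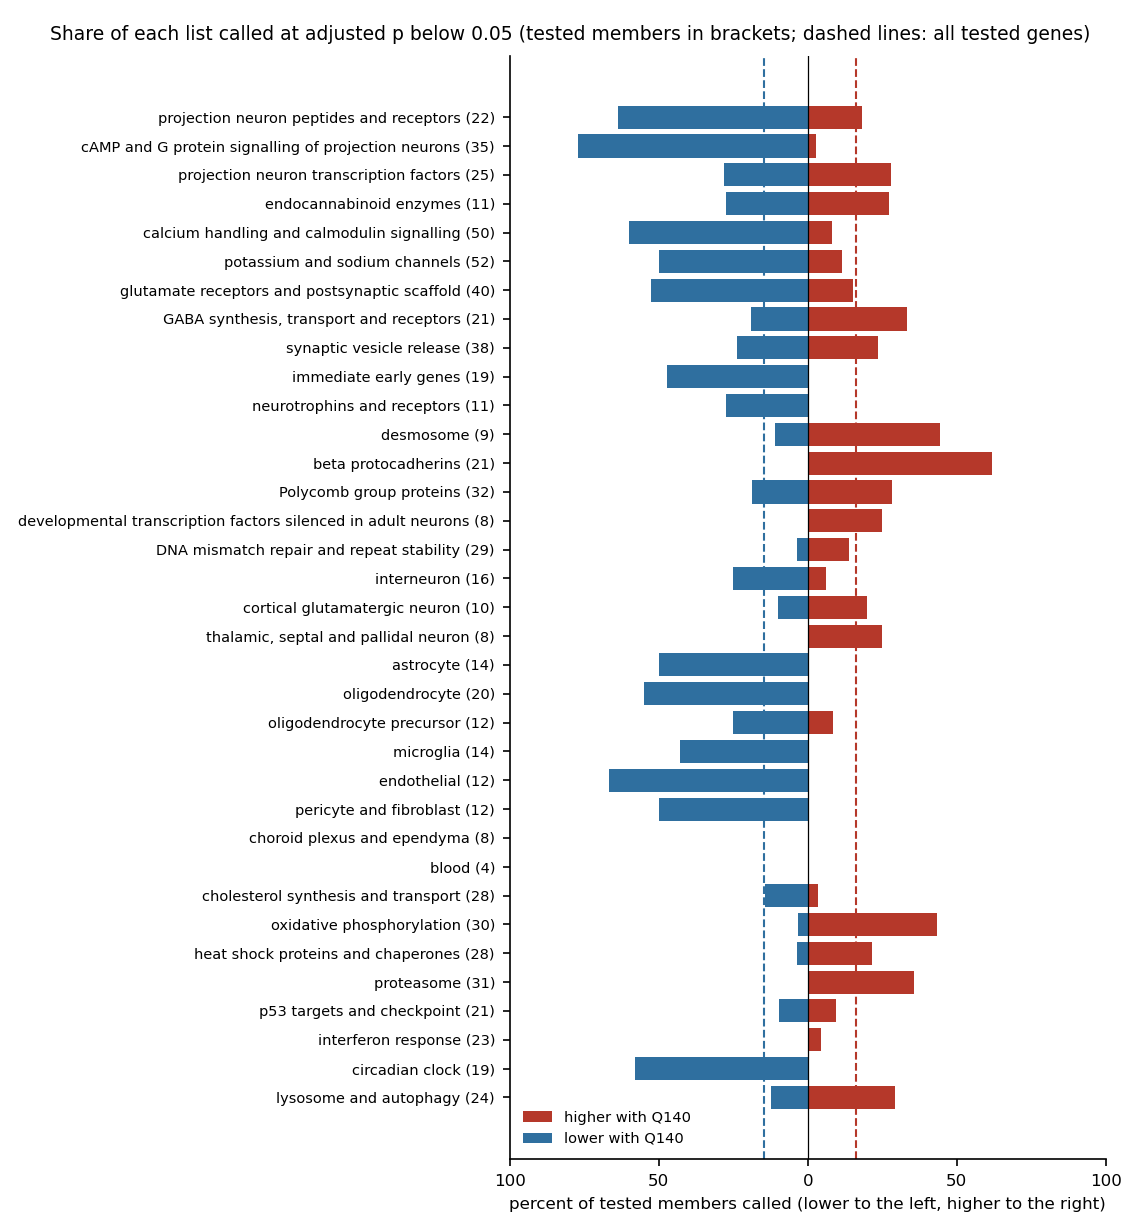
Percent of the tested members of 35 gene lists called lower (blue, to the left) or higher (red, to the right) in Q140 Msh6+/- against Msh6+/- striatum, with all 17503 genes as dashed lines at 14.8% and 16.1%. The lists of projection neuron receptors, cAMP and G protein signalling, calcium handling, circadian clock and several glial and vascular markers reach far to the left, and the beta protocadherins far to the right.

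The peptides and receptors that define projection neurons were mostly lower in Q140 mice. Of 22 tested members 14 were lower and 4 higher, 11 had groups that did not overlap, and the median log2 fold change was -0.37 against 0.01 for all genes. In 2 promoters of this list the cAMP response element or the AP-1 site was found in the 250 bases before the RefSeq start (build GRCm38.p6, read 5′ to 3′ on the strand of the gene), and these are shown because their genes moved in opposite directions. Capitals mark TGACGTCA, the cAMP response element, in Gpr6 (chr10:41072291-41072540, minus strand), 78 to 71 bases before the start, and TGANTCA, the AP-1 site, in Htr2c (chrX:146962263-146962512, plus strand), 198 to 192 bases before the start.
Gpr6: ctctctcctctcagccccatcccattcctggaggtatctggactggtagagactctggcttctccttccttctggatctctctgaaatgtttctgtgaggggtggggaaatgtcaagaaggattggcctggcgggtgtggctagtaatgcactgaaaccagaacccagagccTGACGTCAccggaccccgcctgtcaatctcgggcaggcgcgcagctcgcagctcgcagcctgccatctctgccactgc
Htr2c: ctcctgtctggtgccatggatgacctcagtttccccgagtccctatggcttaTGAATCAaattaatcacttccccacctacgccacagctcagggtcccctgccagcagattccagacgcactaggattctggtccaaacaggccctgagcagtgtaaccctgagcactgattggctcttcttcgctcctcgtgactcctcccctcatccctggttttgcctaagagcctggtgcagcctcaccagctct
Both strands were searched, and no motif contains another. Of the 15 list members with a promoter in the RefSeq table, 1 held TGACGTCA (1.62% of all 27025 promoters did), 1 held TGANTCA (6.87% of all) and 0 held the Egr motif GCGTGGGCG (0.54% of all). The lists of cAMP and G protein signalling and of transcription factors, described below, were searched too. None of these motifs was in any of their 28 and 20 promoters. The E-box CACGTG, searched for the clock genes described further on, was in 2 of the 15 (6.05% of all). It was in 3 of the 28 and in 2 of the 20 promoters of the other lists. A match is a description of the sequence and not a site shown to be used.

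Penk (ENSMUSG00000045573, chr4:4133531-4138819), the precursor of enkephalin, ranged from 1584 to 1825 CPM (median 1674) in Msh6+/- mice and from 706 to 845 CPM (median 764) in Q140 Msh6+/- mice. Every Q140 mouse was below every control, with a difference of -1.14 ± 0.04 (log2, SE; adjusted p = 3.5e-28). Drd2 was at 241 to 284 CPM (median 251) without and 154 to 175 CPM (median 166) with Q140, a log2 fold change of -0.62 ± 0.04 (adjusted p = 1.8e-16). Adora2a went from 392 to 486 CPM (median 442) down to 215 to 277 CPM (median 246), a log2 fold change of -0.83 ± 0.05 (adjusted p = 4.7e-17). These 3 genes of the indirect pathway had groups that did not overlap. In the direct pathway, Drd1 was at 349 to 407 CPM (median 386) without and 226 to 260 CPM (median 244) with Q140, also without overlap (-0.64 ± 0.04, adjusted p = 2.7e-20). Tac1 moved the other way, from 177 to 210 CPM (median 190) to 212 to 237 CPM (median 222), a rise of 0.22 ± 0.05 on the log2 scale (adjusted p = 0.00072) with the groups just apart. Pdyn, the dynorphin precursor of the same neurons, was at 80.5 to 114 CPM and at 89.4 to 126 CPM, overlapping and not called (0.07 ± 0.11, adjusted p = 0.68). In bulk tissue, fewer cells of a type and less RNA of a gene per cell cannot be told apart.

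Cnr1, the cannabinoid receptor, fell most among the receptors, from 428 to 646 CPM (median 471) to 197 to 251 CPM (median 232), a log2 fold change of -1.09 ± 0.10 (adjusted p = 3.9e-12). Chrm4, the muscarinic receptor of direct pathway neurons, was at 90.7 to 100 CPM without and 52.9 to 63.5 CPM with Q140 (-0.70 ± 0.04, adjusted p = 5e-21). Gpr6, an orphan receptor of the indirect pathway, went from a median of 98.7 to 67.1 CPM (-0.55 ± 0.05). All of these had groups without overlap, as had the histamine receptor Hrh3 (-0.47 ± 0.08). Lower with overlapping groups were Oprd1, Chrm1, Htr1b, Htr4 and Htr6, with log2 fold changes from -0.67 in Htr4 to -0.18 in Chrm1. Htr2c, a serotonin receptor, rose from 43.6 to 71.3 CPM (median 57.6) to 96.9 to 129 CPM (median 104), a log2 fold change of 0.88 ± 0.10 (adjusted p = 1.2e-09) with no overlap. The orphan receptor Gpr149 rose with a small overlap, from a median of 10 to 16.2 CPM (0.65 ± 0.11, adjusted p = 3.5e-06). Drd3 rose by 0.51 ± 0.17 (adjusted p = 0.016), but the call was lost without Q140 mouse 17-1 (0.40, adjusted p = 0.064). Oprm1, Oprk1 and Tacr1 were not called.

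**Figure D2:**
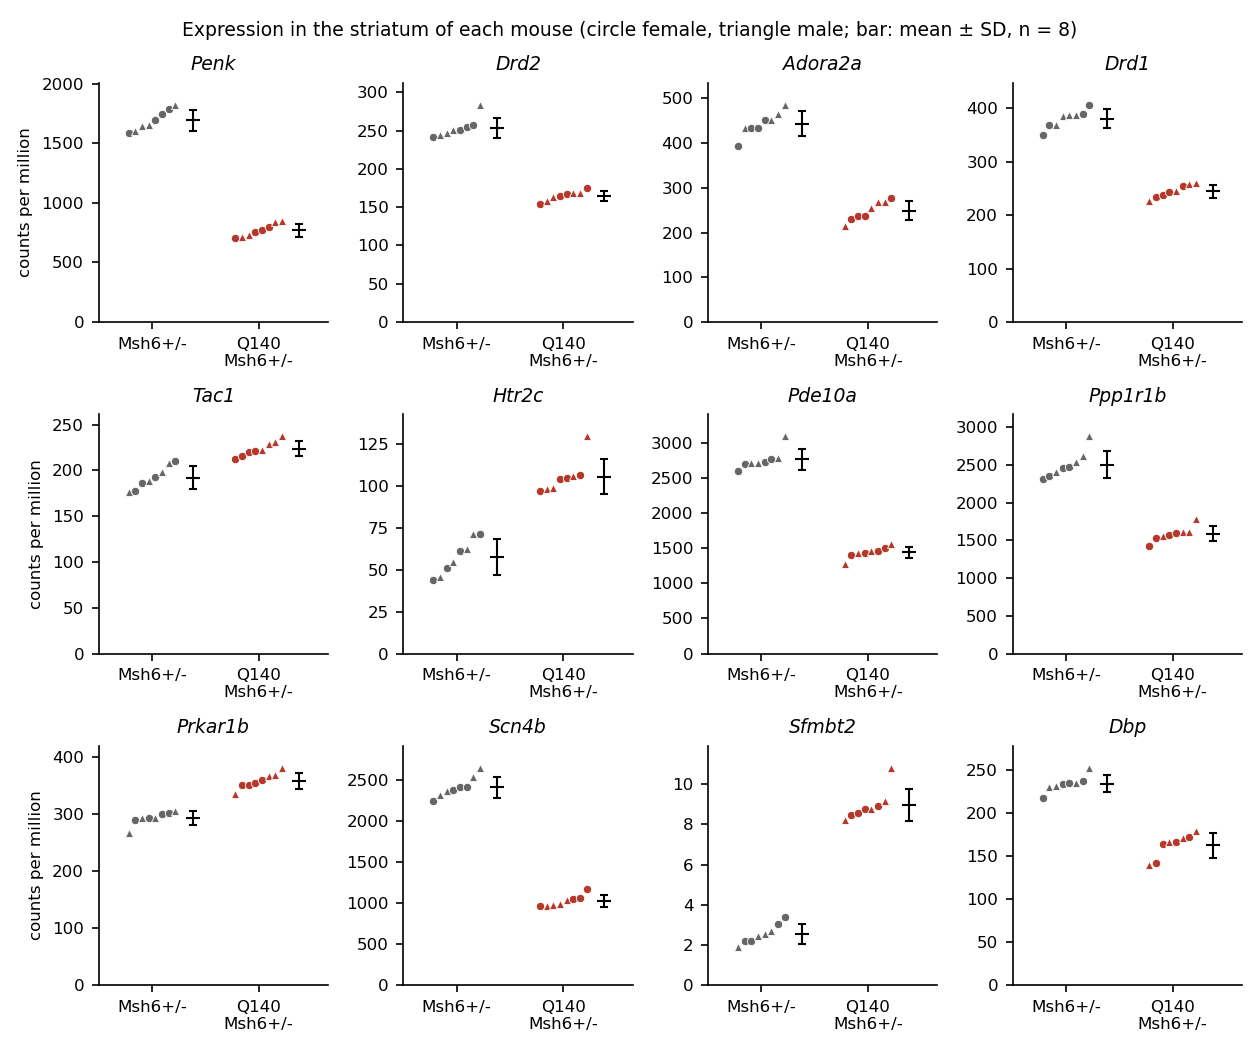
CPM of 12 genes in the striatum of each of 16 mice (circles female, triangles male), with mean ± SD of the 8 mice of each group beside the points. In all 12 genes the Msh6+/- mice (grey) and the Q140 Msh6+/- mice (red) occupy separate ranges, with Tac1, Htr2c, Prkar1b and Sfmbt2 higher and the other 8 genes lower in Q140 mice.

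The enzymes that carry the dopamine and adenosine signal inside these neurons were lower almost throughout. In the list of cAMP and G protein signalling 27 of 35 members were lower and 1 was higher, 25 had groups without overlap, and the median log2 fold change was -0.44. Pde10a, the phosphodiesterase concentrated in projection neurons, went from 2602 to 3092 CPM (median 2719) to 1271 to 1553 CPM (median 1445), a difference of -0.94 ± 0.05 (log2, SE; adjusted p = 1.5e-20). Adcy5, their main adenylyl cyclase, went from 2055 to 2435 CPM (median 2227) to 1272 to 1425 CPM (median 1344), a log2 fold change of -0.73 ± 0.03 (adjusted p = 2.7e-26). Ppp1r1b, which encodes DARPP-32, the phosphatase inhibitor at which these signals meet, went from 2320 to 2883 CPM (median 2463) to 1430 to 1784 CPM (median 1583), a log2 fold change of -0.66 ± 0.04 (adjusted p = 2.6e-19). For all 3 the lowest control mouse was well above the highest Q140 mouse. The regulators of G protein signalling Rgs9, Rgs14 and Rgs4 had log2 fold changes of -0.74, -0.91 and -0.81, and the phosphodiesterase Pde1b of -0.63, each without overlap. Ptpn7, a tyrosine phosphatase of MAP kinases, had the largest difference of the list, from 11.8 to 17.4 CPM (median 14.5) to 3.52 to 6.78 CPM (median 5.84), a log2 fold change of -1.33 ± 0.11.

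Smaller falls were measured in the G protein subunits that couple these receptors to the cyclase. Gnal, the stimulatory alpha subunit of striatum, was at 1065 to 1163 CPM (median 1094) without and 867 to 1009 CPM (median 978) with Q140 (-0.19 ± 0.03, adjusted p = 9.5e-07), and Gng7, its gamma partner, had a log2 fold change of -0.22 ± 0.04. The only riser of the list was Prkar1b, a regulatory subunit of protein kinase A, at 266 to 305 CPM (median 293) without and 335 to 381 CPM (median 357) with Q140 (0.29 ± 0.03, adjusted p = 1.3e-11), again with separate groups. The catalytic subunit Prkaca (0.04) and the regulatory subunit Prkar2b (-0.02) were not called, nor were Rgs8, Pde1c, Pde4b and the guanylyl cyclase subunits Gucy1a3 and Gucy1b3. The count of 27 lower members was the same without each library in turn, with DESeq2, with RLE scaling and on the FPKM scale.

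Transcription factors of projection neurons were called in both directions, 7 of 25 higher and 7 lower, with a median log2 fold change of 0.08. Among those lower without overlap, Bcl11b, which encodes CTIP2, a factor needed to make projection neurons, was at 486 to 534 CPM (median 517) without and 398 to 449 CPM (median 427) with Q140 (-0.27 ± 0.03, adjusted p = 2.1e-09). Foxp1 had a log2 fold change of -0.33 ± 0.04, Meis2 of -0.28 ± 0.03, Rarb of -0.34 ± 0.04, Foxo1 of -0.45 ± 0.06 and Rxrg of -0.58 ± 0.10. Rarb and Rxrg are retinoid receptors, and Rarb overlaps Top2b. Higher without overlap were Bcl11a (0.27 ± 0.03), Foxp4 (0.36 ± 0.05) and Isl1, a factor of direct pathway neurons, which went from a median of 17.5 to 22.4 CPM (0.35 ± 0.06, adjusted p = 2.3e-06). The other 4 higher members, Zfp503, Ikzf2, Six3 and Zfp521, had log2 fold changes of 0.12 to 0.33 with overlapping groups. Without the 2 shallowest Q140 libraries (mice 21-5 and 26-4) 3 members in place of 7 were higher, and 4 with the animal number prefix (the first part of a mouse's number) as a block, a term that replaces sex. Foxp2, Ebf1, Meis1 and Mef2c were among the 11 not called.

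Channels and calcium handling proteins, which set how projection neurons fire, were also more often lower than higher. Of 52 potassium and sodium channel genes 26 were lower and 6 higher, and 17 had groups without overlap. Scn4b (ENSMUSG00000046480, chr9:45138395-45154152), a sodium channel beta subunit abundant in striatum, had the smallest adjusted p of the genes named here. It was at 2238 to 2649 CPM (median 2391) in Msh6+/- mice and at 960 to 1169 CPM (median 1008) in Q140 Msh6+/- mice, a log2 fold change of -1.24 ± 0.04 (adjusted p = 2.2e-31). The highest Q140 mouse was below the lowest control. The potassium channel genes Kcnh4 (-0.98 ± 0.06), Kcnab1 (-0.58 ± 0.04), Kcnh3 (-0.55 ± 0.04) and Kcnj4 (-0.49 ± 0.04) were lower with separate groups, and Scn3b (0.33) and Hcn3 (0.38) were higher with separate groups. In the calcium list 30 of 50 were lower, 4 were higher (7 on the FPKM scale), 27 had separate groups and the median log2 fold change was -0.21. Ppp3ca, the catalytic subunit of calcineurin, went from 2706 to 3054 CPM to 1961 to 2178 CPM (-0.48 ± 0.03, adjusted p = 8.6e-21), and Itpr1, the calcium release channel of the endoplasmic reticulum, from 1759 to 1880 CPM to 1121 to 1348 CPM (-0.54 ± 0.03, adjusted p = 5.3e-20). The calcium pump Atp2b1 (-0.57), the kinase subunit Camk2b (-0.34) and the exchanger Slc8a2 (-0.45) were lower, all without overlap, and the pump Atp2b4 (0.58) was higher.

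At the excitatory synapse 21 of 40 glutamate receptor and scaffold genes were lower and 6 higher (10 on the FPKM scale, 3 with the animal number prefix as a block), with a median log2 fold change of -0.14. Shank3, a postsynaptic scaffold, went from 565 to 678 CPM (median 610) to 382 to 443 CPM (median 404), a log2 fold change of -0.59 ± 0.03 (adjusted p = 1.6e-20). The kainate receptor subunit Grik2 (-0.55 ± 0.04) and the metabotropic receptor Grm5 (-0.37 ± 0.03) were lower, and the scaffold Dlg3 was higher (0.21 ± 0.02), all with separate groups. Genes of GABA transmission were less one-sided, with 7 of 21 higher and 4 lower and a median of 0.06. Without control mouse 13-3 or 22-1, or without Q140 mouse 16-4 or 26-4, 2 in place of 4 were lower. Gabrd, the delta subunit of extrasynaptic receptors, went from 138 to 158 CPM (median 151) to 87.8 to 107 CPM (median 99.9), without overlap (-0.59 ± 0.04, adjusted p = 1.6e-17). The synthetic enzymes Gad1 and Gad2 were not called. Synaptic vesicle genes were called equally in both directions, 9 higher and 9 lower of 38 (15 and 7 on the FPKM scale). Syp, the vesicle protein synaptophysin, went from 413 to 486 CPM (median 432) to 581 to 677 CPM (median 618), a rise of 0.52 ± 0.03 (adjusted p = 1.3e-18), and Syt2, a calcium sensor of release, from a median of 101 to 51.1 CPM (-0.93 ± 0.12, adjusted p = 5.5e-08). Syt2 overlaps Ppp1r12b.

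Enzymes of endocannabinoid metabolism, which make and remove the ligands of Cnr1, were called in both directions, 3 of 11 higher and 3 lower. Faah, which degrades anandamide, was at 13.4 to 16.6 CPM (median 14.7) without and 20.9 to 23.0 CPM (median 21.9) with Q140, with separate groups (0.55 ± 0.06, adjusted p = 6.7e-11). Dagla, which makes 2-arachidonoylglycerol, went from a median of 135 to 110 CPM, also without overlap (-0.33 ± 0.05). Cnrip1, a protein that binds the receptor, was higher (0.39 ± 0.05) but overlaps Plek, and Mgll was higher with overlapping groups (0.20 ± 0.06). Without the 2 shallowest Q140 libraries 1 member in place of 3 was lower, as with the prefix block and on the FPKM scale. Of 11 tested neurotrophin ligands and receptors (15 in the list) 3 were lower and 0 higher. Ntrk3, the receptor of neurotrophin 3, went from 308 to 358 CPM (median 327) to 198 to 270 CPM (median 240), without overlap (-0.47 ± 0.06, adjusted p = 3.4e-09). Sort1 was lower by 0.26 ± 0.03 on the same scale with separate groups. Ntrk2, the receptor of BDNF, was not called.

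Some products of the circadian clock genes drive daily rhythms of transcription through E-box promoter motifs. In the list of clock genes 11 of 19 members were lower and 0 higher, and 10 of the 11 had separate groups. The median log2 fold change was -0.26. The time of day of tissue collection is not given in the sources used here. The promoters of 3 lower members are shown, as above from RefSeq GRCm38.p6, because they hold the E-box CACGTG (capitals). They are Ciart (chr3:95882229-95882478, minus strand, 3 matches), Per1 (chr11:69098699-69098948, plus strand) and Tef (chr15:81802423-81802672, plus strand).
Ciart: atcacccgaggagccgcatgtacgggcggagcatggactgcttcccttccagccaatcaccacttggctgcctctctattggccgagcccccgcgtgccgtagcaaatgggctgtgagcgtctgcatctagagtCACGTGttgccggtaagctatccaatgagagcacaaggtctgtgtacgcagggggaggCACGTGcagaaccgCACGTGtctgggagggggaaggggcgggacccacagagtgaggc
Per1: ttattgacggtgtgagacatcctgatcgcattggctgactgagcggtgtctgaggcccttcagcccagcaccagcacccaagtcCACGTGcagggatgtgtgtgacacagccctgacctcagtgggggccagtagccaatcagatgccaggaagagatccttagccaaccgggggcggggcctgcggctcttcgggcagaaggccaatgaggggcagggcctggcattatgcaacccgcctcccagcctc
Tef: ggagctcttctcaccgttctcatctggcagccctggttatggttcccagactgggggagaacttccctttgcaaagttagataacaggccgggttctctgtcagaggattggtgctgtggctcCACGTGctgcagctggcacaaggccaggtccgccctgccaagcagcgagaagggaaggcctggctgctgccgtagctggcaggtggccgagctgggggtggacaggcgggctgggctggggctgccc
CACGTG was found in 5 of the 17 clock promoters in the table (Ciart, Per1, Tef, Bhlhe41 and Cry1) against 6.05% of all 27025, and Cry1 was not called. This motif and the genes Per1, Nr1d1 and Bhlhe41 were chosen after the values were seen.

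Ciart, a repressor of the clock, had the largest difference of the list, from 31.3 to 42.3 CPM (median 37.9) to 16.9 to 23.1 CPM (median 20.2), a difference of -0.91 ± 0.11 (log2, SE; adjusted p = 2.9e-09). Dbp, an output factor of the clock, went from 217 to 253 CPM (median 234) to 139 to 179 CPM (median 166), a log2 fold change of -0.53 ± 0.06 (adjusted p = 5.4e-10). Both were lower in all 8 Q140 mice than in any control. The related factors Hlf (-0.35 ± 0.04) and Tef (-0.26 ± 0.04), the activator Npas2 (-0.49 ± 0.07) and the repressors Per1 (-0.57 ± 0.12), Nr1d1 (-0.39 ± 0.09) and Bhlhe41 (-0.22 ± 0.05) were also lower with separate groups. Dbp overlaps Sphk2, and Nr1d1 overlaps Thra. Clock, Arntl, Cry1 and Cry2 were not called. The list held 11 lower members in the striatum of Msh6+/+ mice and 11 in that of Msh6-/- mice as well, and 9 in each sex alone.

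**Figure D3:**
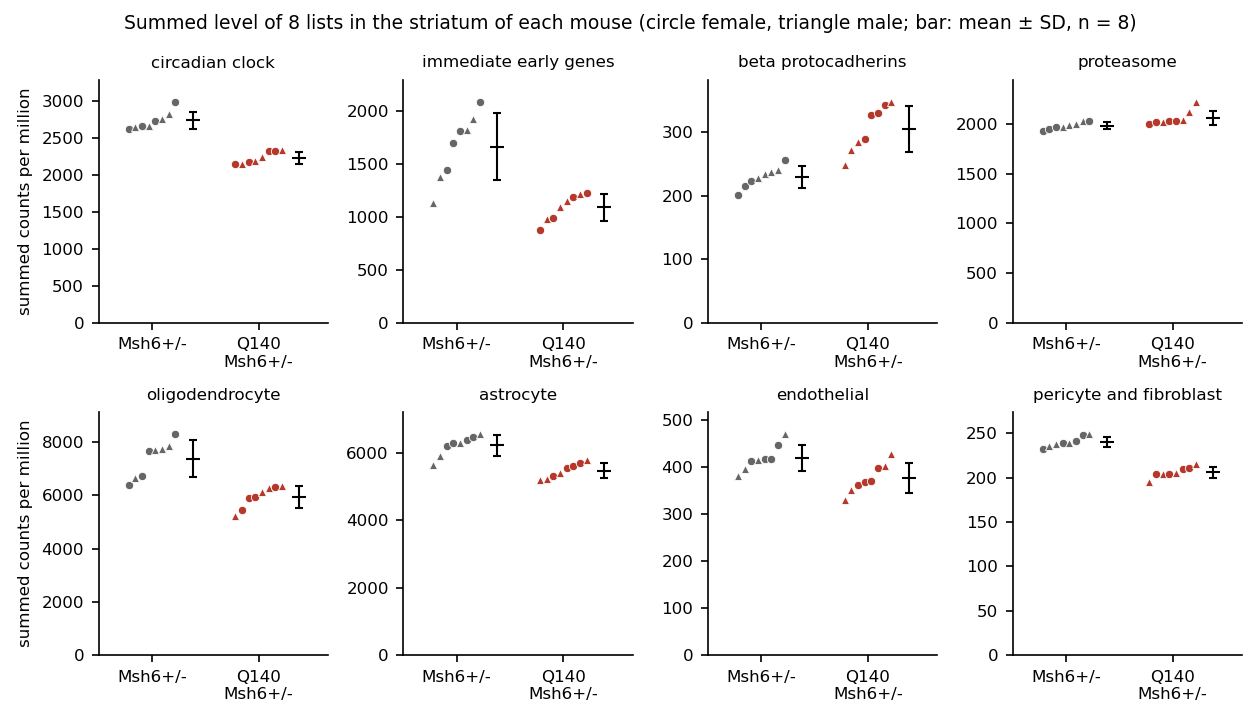
Summed CPM of 8 gene lists in the striatum of each of 16 mice (circles female, triangles male), with mean ± SD of the 8 mice beside the points. The clock genes, astrocyte, pericyte and fibroblast markers sit lower in Q140 mice, with the pericyte and fibroblast sum at 195 to 215 in Q140 mice and 233 to 249 in controls, while the beta protocadherins sit higher with a small overlap.

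Immediate early genes, which neuronal activity induces within minutes, were lower in 9 of 19 tested members and higher in 0, with a median log2 fold change of -0.61. Their summed level ran from 1131 to 2085 CPM in Msh6+/- mice and from 879 to 1228 CPM in Q140 Msh6+/- mice, and it varied widely within the controls. Homer1, whose short form is induced by activity, went from 224 to 323 CPM (median 260) to 159 to 188 CPM (median 173), without overlap (-0.63 ± 0.09, adjusted p = 6.2e-07). Egr3 was also apart (95.5 to 123 against 68.2 to 89.0 CPM, -0.48 ± 0.09), whereas Egr1 (294 to 637 against 246 to 353 CPM, -0.61 ± 0.18), Egr2 (9.48 to 37.4 against 4.51 to 11.2 CPM, -1.59 ± 0.37) and Jun (-0.40 ± 0.10) overlapped. Fos, Arc and Nr4a1 were among the 10 not called. The count of lower members ranged from 7 to 12 when single libraries were left out and was 4 with the prefix block. In the cortex of the same mice the median log2 fold change was -0.35, with 0 members called. The striatum minus cortex difference was called in 1 member, as negative, so the fall is not shown to be confined to striatum.

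Genes that rose included a group of clustered cell adhesion genes. Of the 21 beta protocadherins 13 were higher, 0 were lower, and the median log2 fold change was 0.48. Pcdhb9 went from 10.6 to 15.8 CPM (median 13.8) to 19.2 to 27.3 CPM (median 22.2), with separate groups (0.71 ± 0.09, adjusted p = 2.6e-09), Pcdhb19 from a median of 18.8 to 27.5 CPM (0.51 ± 0.06) and Pcdhb20 from 17.8 to 24.5 CPM (0.43 ± 0.06), both also apart. Pcdhb21 and Pcdhb22 overlap each other. The genes of this cluster are near-identical copies in a row, so reads may be split between them and single members are uncertain. The summed level of the cluster was at 201 to 257 CPM in controls and 249 to 348 CPM in Q140 mice. Among desmosome genes 4 of 9 tested (15 in the list) were higher and 1 lower. Dsg2 went from 0.827 to 3.14 CPM to 4.79 to 6.25 CPM (1.30 ± 0.28) and Dsg1c from 1.84 to 3.62 CPM to 5.07 to 6.99 CPM (1.13 ± 0.23), both with separate groups at a low level, and Dsp from a median of 0.775 to 2.31 CPM with overlap (1.49 ± 0.32). Pkp2 was higher (0.58 ± 0.13), and Jup, a plakoglobin that is not confined to desmosomes, lower (-0.22 ± 0.07).

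Polycomb proteins, which keep developmental genes silent, were called in both directions, 9 of 32 higher and 6 lower (15 and 3 on the FPKM scale). Sfmbt2 (ENSMUSG00000061186, chr2:10370510-10595253), an MBT domain protein of the Polycomb group, went from 1.89 to 3.39 CPM (median 2.48) to 8.24 to 10.8 CPM (median 8.76), a rise of 1.82 ± 0.12 on the log2 scale (adjusted p = 3.8e-18). The chromodomain protein Cbx8 (7 to 10.9 against 11.9 to 17.8 CPM, 0.82 ± 0.10) and the ring finger protein Bmi1 (0.24 ± 0.04) were higher with separate groups. Cbx7 was lower with overlap (-0.19 ± 0.03). The core methyltransferase subunits Ezh2, Eed and Suz12 were not called. Of 50 developmental transcription factors that adult neurons keep silent, only 8 passed the filter on low counts, and 2 of these were higher. A member with almost no counts in controls could pass only through the Q140 group, so these counts say nothing of the list as a whole. Wt1 was at 0 to 0.222 CPM (median 0.106) without and 0.479 to 2.68 CPM (median 1.49) with Q140, and Onecut1 at 0 to 0.119 CPM and 0.152 to 1.03 CPM, both with separate groups. Their levels stayed very low.

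Among genes that averaged at least 1 on the log2 CPM scale, the largest rise was in the predicted gene Gm6089 (2.97), described among the other observations. Predicted and clone-named genes apart, the largest rises after Sfmbt2 were Fam196b (1.55 ± 0.14), AW551984 (1.54 ± 0.19), Dsp, Rprm (1.43 ± 0.15), the channel-like gene Tmc3 (1.36 ± 0.15), Dsg2, Ipcef1 (1.30 ± 0.09), the troponin Tnnt2 (1.27 ± 0.10) and the neuronal adhesion gene Slitrk6 (1.22 ± 0.11). All of these except Dsp had groups without overlap. Rprm, for example, was at 2.53 to 5.33 CPM without and 8.66 to 13.1 CPM with Q140. Fam196b overlaps Dock2 on the opposite strand.

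The largest falls were chosen in the same way. Gpx6 (ENSMUSG00000004341, chr13:21312125-21319624), a glutathione peroxidase, was at 10.7 to 25.5 CPM (median 15.2) without and 2.44 to 3.40 CPM (median 3.06) with Q140, a log2 fold change of -2.42 ± 0.17 (adjusted p = 1.2e-15). Cpne9, a calcium-dependent membrane-binding copine, was at 13.6 to 22.5 CPM (median 16.3) without and 2.44 to 4.89 CPM (median 3.61) with Q140 (-2.21 ± 0.17, adjusted p = 2.2e-14). Ddit4l, a stress-responsive inhibitor of mTOR signalling, went from 32.5 to 44.2 CPM (median 39.6) to 7.26 to 10.1 CPM (median 9.49), a log2 fold change of -2.09 ± 0.08 (adjusted p = 1.9e-25). In each of these 3 genes the controls were at several times the Q140 level, with no overlap. Vwa7 (-1.94), Serpinb1b (-1.85), Sec14l3 (-1.76), Odf4 (-1.73), the protease gene Tmprss6 (-1.69) and the transporter Slc4a11 (-1.58) followed, also without overlap, and Egr2 (-1.59) with overlap.

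Markers of several non-neuronal cell types were lower in Q140 mice. Oligodendrocyte markers were lower in 11 of 20 members and higher in 0, with a median log2 fold change of -0.21, and all 20 had a negative fold change. With the prefix block 7 were lower, and on the FPKM scale 8. Fa2h, a fatty acid hydroxylase of myelin lipids, went from 41.4 to 57.1 CPM (median 48.8) to 29.9 to 38.4 CPM (median 35.2), without overlap (-0.47 ± 0.06, adjusted p = 4.4e-09). Aspa (-0.49), Ugt8a (-0.49) and Mal (-0.36) were also lower without overlap. The summed list was at 6386 to 8298 CPM in controls and 5236 to 6350 CPM in Q140 mice, and the groups did not overlap. The same list had 1 member higher and 5 lower in Msh6+/+ mice (median -0.02) and 1 higher and 13 lower in Msh6-/- mice (median -0.21). The difference from Msh6+/+ was at an unadjusted p below 0.05 in 8 of the 20 members and in 811 of all 17503 genes. None passed adjustment over all genes, and the members are not independent replicates. Oligodendrocyte precursor markers were lower in 3 of 12 (1 with the prefix block and on the FPKM scale) and higher in 1, a call lost without any of 9 single libraries.

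Endothelial markers were lower in 8 of 12, pericyte and fibroblast markers in 6 of 12, astrocyte markers in 7 of 14 and microglia markers in 6 of 14, with 0 higher in each. On the FPKM scale 3 astrocyte and 3 microglia markers were lower, and with the prefix block 5 endothelial markers. The summed astrocyte list ran from 5620 to 6541 CPM in controls and from 5184 to 5779 CPM in Q140 mice, and the summed microglia list from 539 to 630 CPM and from 468 to 540 CPM, so both overlapped narrowly. Slc1a2, the glutamate transporter of astrocytes, went from 2951 to 3367 CPM (median 3246) to 2371 to 2930 CPM (median 2718), without overlap (-0.24 ± 0.03, adjusted p = 7.3e-08), and Atp1b2 had a log2 fold change of -0.29 ± 0.04. Gfap, the filament raised in reactive astrocytes, was at 15.6 to 45.4 CPM without and 11.7 to 30.0 CPM with Q140 (-0.63 ± 0.23, adjusted p = 0.03), a call lost without any of 6 single libraries. In vascular cells Flt1 (-0.26), Esam (-0.29), Rgs5 (-0.24) and Pdgfrb (-0.23) were lower, and in microglia P2ry12 (-0.25) and Csf1r (-0.18). Choroid plexus and ependyma (8 tested) and blood (4 tested) had 0 called members each. Markers of cortical neurons were called in 3 of 10 and those of thalamic, septal and pallidal neurons in 2 of 8. Interneuron markers were lower in 4 of 16 (2 without control mouse 18-4, without Q140 mouse 17-1 or 21-5, without the 2 shallowest Q140 libraries or with the prefix block, and 1 on the FPKM scale), among them Nos1 (129 to 147 against 98.9 to 126 CPM, -0.23 ± 0.04), and higher in 1, Cck, which overlapped at 2.32 to 4.18 and 3.70 to 5.60 CPM. Whether the shift of glial and vascular markers contributes to the other differences was not tested.

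Genes of energy metabolism and protein turnover were more often higher than lower, by small amounts. Of 30 oxidative phosphorylation genes 13 were higher and 1 lower, with a median log2 fold change of 0.08. Cyc1, of complex III, went from a median of 79.2 to 89.5 CPM (0.18 ± 0.03, adjusted p = 7.5e-06), Ndufb5, of complex I, from 67.2 to 74.1 CPM (0.14 ± 0.03) and the ATP synthase subunit Atp5b from 884 to 946 CPM (0.13 ± 0.03). The lower member was Ndufs3 (-0.22 ± 0.03). Without the 2 shallowest Q140 libraries 8 in place of 13 were higher, and on the FPKM scale 24 were. The proteasome list held 11 higher of 31, with a median of 0.05 and the largest rise in Psmb5 (0.17 ± 0.04), and the count was 7 without the 2 shallowest libraries, 6 with the prefix block and 21 on the FPKM scale. It was 0 in females alone and 9 in males alone, a difference between the sexes that passed the test in no member. Chaperones were higher in 6 of 28 (15 on the FPKM scale) and lower in 1. Hspa8, the constitutive HSP70, went from 394 to 458 CPM (median 438) to 511 to 604 CPM (median 544), without overlap (0.35 ± 0.07, adjusted p = 5e-05), and Cct2, of the chaperonin that folds actin and tubulin, from a median of 104 to 115 CPM (0.17 ± 0.03). In the lysosome and autophagy list 7 of 24 were higher and 3 lower (1 lower with the prefix block and on the FPKM scale), with Ulk1 (0.22) and Sqstm1 (0.15) higher without overlap. Cholesterol genes were lower in 4 of 28 and higher in 1, with Cyp46a1 (-0.28) and Srebf2 (-0.22) apart. Of 21 p53 targets and checkpoint genes 2 were higher (Aen, Bax) and 2 lower (Ddit4l, Gadd45a). The higher count was 4 without Q140 mouse 14-1, 1 without control mouse 19-2 or 22-1 or Q140 mouse 15-1, 17-1 or 26-4, 0 with the prefix block (1 lower) and 5 on the FPKM scale, and the call of Bax (0.12, adjusted p = 0.034) was lost with DESeq2 and without any of 6 single libraries.

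Mismatch repair and repeat stability genes were called in 5 of 29 tested members, 4 higher and 1 lower, a share below that of all genes, with a median log2 fold change of 0.05. Rrm2b, a ribonucleotide reductase subunit, went from 41.4 to 48.6 CPM to 51.1 to 58.3 CPM (0.27 ± 0.04) and the single-strand binding protein Rpa1 from 36.9 to 43.1 CPM to 43.3 to 46.9 CPM (0.16 ± 0.04), both with separate groups. The clamp loader subunit Rfc5, which overlaps Wsb2, was lower (-0.43 ± 0.07), and the clamp loader subunit Rfc1 had a log2 fold change of 0.08 ± 0.03, a call lost with DESeq2, with RLE scaling and without any of 11 single libraries. Msh3 (0.08), Mlh3 (0.09), Pms1 (0.05), Pms2 (0.05), Fan1 (-0.01) and Lig1 (0.08), proteins known to act on CAG repeats, were not called. On the FPKM scale 11 members were higher and 1 lower.

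The effect of Q140 was then set against that in the other Msh6 genotypes, whose mice are different animals. In Msh6+/+ striatum 29.5% of the 17503 genes were called and in Msh6-/- striatum 32.7%, against 30.9% in Msh6+/-. Of the 2819 genes higher in Msh6+/- mice 1873 were also higher in Msh6+/+ (66.44% of the first and 69.4% of the second list) and 2016 in Msh6-/- (71.51% and 65.41%). Of the 2596 lower genes 1900 were also lower in Msh6+/+ (73.19% and 77.11%) and 2025 in Msh6-/- (78% and 76.91%). A call in the opposite direction occurred in 0 genes. Across all tested genes, which are not independent replicates, the log2 fold changes in Msh6+/- had a Pearson r of 0.744 with those in Msh6+/+ and 0.756 with those in Msh6-/- (Spearman 0.696 and 0.717).

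The test of the difference itself called 0 genes (0%) for Msh6+/- against Msh6+/+ and 0 genes (0%) for Msh6+/- against Msh6-/- with edgeR and with DESeq2, with 811 and 707 genes at an unadjusted p below 0.05 (edgeR). The smallest adjusted p against Msh6+/+ was 0.93, in Apba2, where Q140 made a difference of 0.11 ± 0.03 in Msh6+/- and -0.05 in Msh6+/+ mice (95% interval of the difference 0.08 to 0.23). Against Msh6-/- it was 0.998 in Spag7 (0.00 against -0.17). A p that misses the threshold does not show that effects were alike, and the intervals bound them gene by gene. For Scn4b the effect in Msh6+/- minus that in Msh6+/+ lay between -0.19 and 0.03 on the log2 scale, for Adcy5 between -0.13 and 0.05, for Pde10a between -0.25 and 0.03, for Drd1 between -0.11 and 0.10 and for Ciart between -0.44 and 0.16. Penk fell by 1.14 in Msh6+/-, by 1.30 in Msh6+/+ and by 1.27 in Msh6-/- mice, and its interval against Msh6+/+, 0.04 to 0.28, left out 0 before adjustment only (unadjusted p = 0.0076). Of the genes called in Msh6+/- alone, 551 higher and 386 lower, 27 and 15 had an unadjusted p below 0.05 in both differences. Such genes were chosen by the same values, and both differences share the Msh6+/- effect. The share over all genes was not counted, so these counts do not show genes particular to Msh6+/-.

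**Figure D4:**
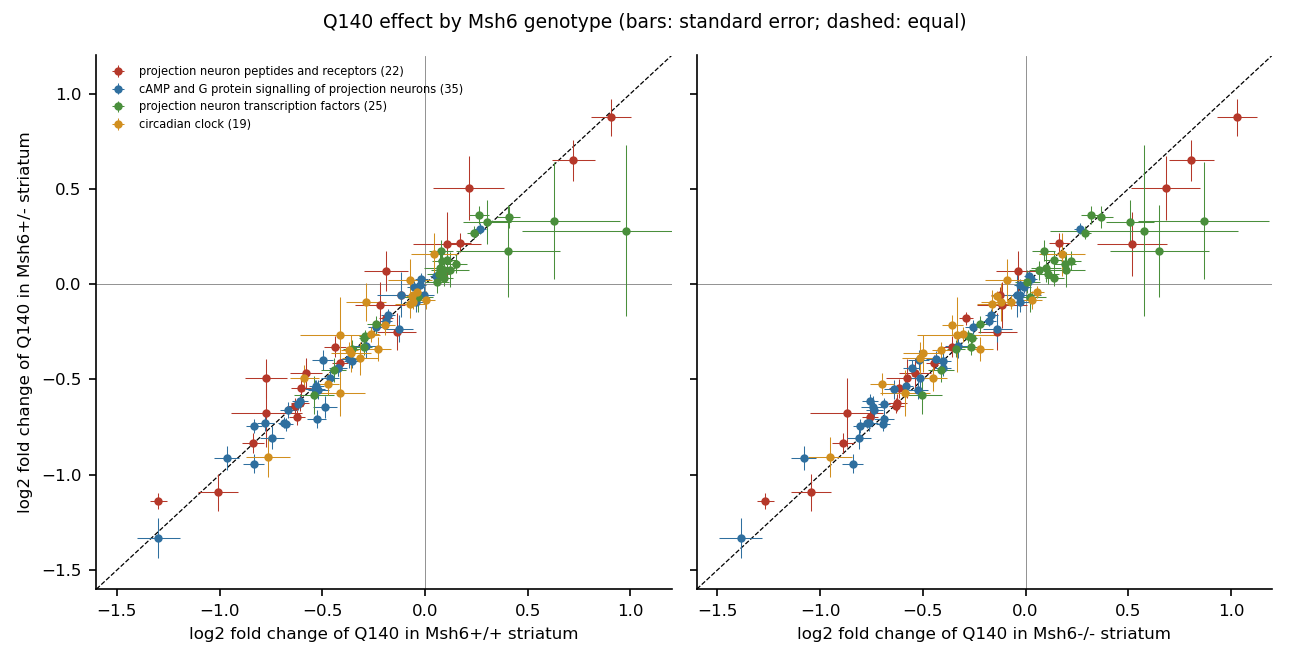
Log2 fold change of Q140 in Msh6+/- striatum (vertical axes) against that in Msh6+/+ (left) and Msh6-/- striatum (right) for 101 tested genes of 4 lists, with standard errors as bars and equality as the dashed line. The points lie along the line in both panels, with Penk above it at -1.14 against -1.30 and -1.27.

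The effect of Q140 called 2773 genes (15.8%) in the 4 against 4 female mice and 3438 (19.6%) in the males, and 2013 genes were called in both sexes in the same direction and 0 in opposite directions. Of the 5415 genes called over both sexes, 5414 had the same sign in each sex. Those genes were chosen by the effect over the same mice, which largely fixes this agreement in advance. The female minus male difference was called in 0 genes (0%) by edgeR and by DESeq2, with 544 at an unadjusted p below 0.05. Echdc2 had its smallest adjusted p, 0.109, with a log2 fold change of 0.24 in females and 1.13 in males. Penk was at -1.17 in females and -1.11 in males, Scn4b at -1.16 and -1.32, Htr2c at 0.86 and 0.89, and Sfmbt2 at 1.68 and 1.96.

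The cortex of the same 16 mice was used to ask which of these differences were also present in a second tissue. In the joint fit of both tissues (17698 genes) Q140 called 13 genes (0.0735%) in cortex, 5 higher and 8 lower, with 1866 at an unadjusted p below 0.05. The joint fit had no term for the animal, so the values from it do not use the pairing of the tissues. The difference between tissues itself, striatum minus cortex, was called positive in 1219 genes (6.89%) and negative in 1694 (9.57%). With the animal as replicate block it was positive in 1478 and negative in 2051 genes. Of the 5387 striatal calls that the joint fit held, 2640 differed from cortex, 2639 of them in the direction of the striatal change. That agreement was largely fixed in advance, since the genes were chosen by their striatal change, which is part of the difference. Scn4b had a log2 fold change of -0.08 ± 0.05 in cortex (adjusted p = 3.9e-14 for the difference), Adcy5 of 0.09 ± 0.04 (8.7e-16) and Ppp1r1b of -0.02 ± 0.04 (3.7e-12). Drd1 was at 0.01 ± 0.08 (4.7e-07) and Cnr1 at -0.07 ± 0.07 (2.3e-09). The clock genes had 0 of 19 members called in cortex and 7 with a negative difference, among them Ciart (-0.13 ± 0.09 in cortex, 1.8e-05) and Dbp (0.00 ± 0.06, 1.2e-05). For Drd2 (-0.23 ± 0.23 in cortex) the difference between tissues was not called. Predicted and clone-named genes and those averaging below 1 on the log2 CPM scale apart, the largest negative differences were in Vwa7 (-2.48), Sec14l3 (-2.24), Cpne9 (-2.20), Clspn (-1.93) and Ddit4l (-1.73), and the largest positive ones in Dsp (2.29), Sfmbt2 (1.95), Dsg2 (1.63), AW551984 (1.53) and Fam196b (1.42).

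**Figure D5:**
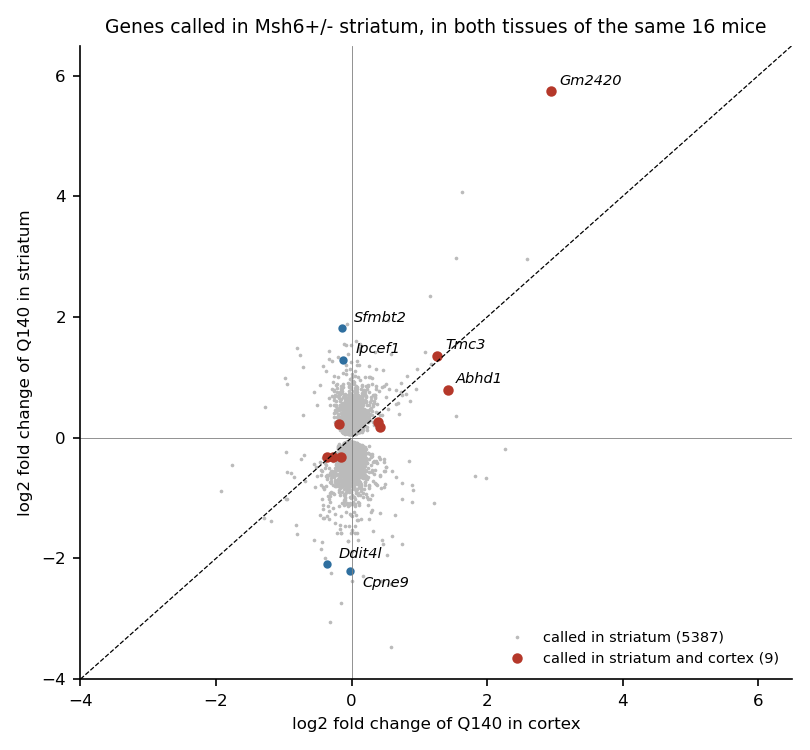
Log2 fold change of Q140 in the striatum (vertical) against the cortex (horizontal) of the same 16 mice, for 5387 genes called in striatum (grey) and 9 also called in cortex (red), with equality dashed. Most points form a column near 0 on the cortex axis, while Gm2420, Tmc3 and Abhd1 lie to the right of it.

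Of the 13 genes called in cortex, 9 were called in the same direction in striatum by the same joint fit and 8 by the fit of striatum alone, and 5 of the 13 lie on chromosome 5 within 10 Mb of Htt. These genes are named because of their calls in cortex and their position, which were looked at after the values were seen. Abhd1 (chr5:30950066-30955091), 3.81 Mb from Htt, was at 3.99 to 5.32 CPM (median 4.16) in Msh6+/- striatum and at 6.41 to 8.52 CPM (median 7.65) with Q140, without overlap, and had a log2 fold change of 1.42 ± 0.09 in cortex. The pseudogene Gm2420, 2.03 Mb away, was at 0 to 0.059 CPM without and 0.766 to 1.73 CPM with Q140 in striatum. Atraid (3.71 Mb; -0.28 in cortex, -0.34 in striatum), Mrpl33 (3.10 Mb; 0.38 and 0.24) and Insig1 (6.68 Mb; -0.36 and -0.34) complete the 5. Abhd1, Atraid and Mrpl33 overlap other genes. Of the genes tested in striatum, 192 lay within 10 Mb of Htt, among them the 5 called in cortex. The 16315 genes on other chromosomes held the other 8 cortex calls. In striatum itself the genes within 5 Mb of Htt were called in 36.2% of 141 and those at 5 to 10 Mb in 33.3% of 51. Those at 10 to 20 Mb were called in 30% of 110, those farther on chromosome 5 in 29.3% of 883 and those on other chromosomes in 31% of 16315. Tmc3, on chromosome 7, was called in both tissues (1.26 ± 0.18 in cortex and 1.35 in striatum), and Lamp5 was the only gene called in opposite directions (-0.19 in cortex and 0.21 in striatum).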

How the data were processed

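The starting points were the authors' deposited read counts per gene, as whole numbers, and their deposited FPKM values, for 48795 genes in 96 libraries. Their processing notes name STAR 2.7.5c, SAMtools 1.10, HTSeq 0.12.3 and the build GRCm38, per the labels, without their settings. Whether counting used strand, and which gene annotation it used, is not given in the sources used here. The deposited FPKM equals the count over a fixed length per gene and the column total, in 32371 of 32371 genes within a tolerance of 0.001. Coordinates are from GENCODE release M21, which held 48435 of the gene identifiers.

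Genotype, sex, tissue and animal were taken from the labels, which leave the prefix of the animal number unexplained. The 48 striatum libraries were fitted together with edgeR 4.0.16 (R 4.3.3; quasi-likelihood, robust, TMM scaling, 6 genotypes and sex). Genes passed filterByExpr with a minimum count of 10 and a minimum total of 15, which left 17503. Genes higher in 1 group only can pass through that group. Called means a Benjamini-Hochberg adjusted p below 0.05 over all genes tested. Errors of log2 fold changes are SE, and intervals are 95%, from the residual degrees of freedom. Tissues were compared in a fit of the 32 libraries of the same 16 mice, with sex and without a term for the animal. The animal number gives both tissues, and the same animal's deviations correlated with a median r of 0.345 (0.172 to 0.399), against -0.163 for other animals, over 15524 genes. The least different pair of libraries of a group differed by a chi-square of 2.59 per gene, so no 2 of these libraries agree within sampling noise.

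Alternatives were DESeq2 1.42.0, RLE scaling, no filter, the prefix of the animal number as a number or as a block, a fit without sex, the 16 libraries alone, an adjusted p of 0.01, and limma-trend 3.58.1 on log2 of the FPKM plus 0.1 or 1. Leaving out single libraries or the 2 shallowest Q140 libraries was added after the data were seen. The members and the 35 lists (820 genes, 752 tested, 2 unmatched) were chosen with earlier results of these data known. Named are the members of the projection neuron and mismatch repair lists, the 10 largest rises and falls, up to 5 called members of each other list and the leading genes of each difference, except for some genes that are not reported here. The mice of a group are separate animals.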

Additional observations from a re-analysis of the deposited data

Results flagged for a closer look

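In the 2 groups of 8 mice, 308 sets of 8 values (154 named genes) were checked for a mouse far from its group, and 31 were found; chance marks about 1 in 20 sets. Many fell on the Q140 mouse 26-4, one of the 2 shallowest Q140 libraries, and on the control mouse 26-3. Mouse 26-4 was lowest of its group in Htt (175 CPM, next 210), Gnal (867, next 974), Grm5 (351, next 420), Pcdhb21 (6.09, next 8.44) and Nos1 (98.9, next 114), and highest in Ndufs3 (67, next 58.8) and Cct2 (123, next 117). Mouse 26-3 was highest of the controls in Drd2 (284 CPM, next 257), Cnr1 (646, next 527), Pde10a (3092, next 2787), Pkp2 (8.72, next 6.57), Cpne9 (22.5, next 17.7) and Tmprss6 (5.87, next 3.15), and lowest in Prkar1b (266, next 288).

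Among the other controls, mouse 18-4 was highest in Drd3 (3.22 CPM, next 2.07), Bhlhe41 (101, next 90.3), Esam (18.9, next 16.6) and Gpx6 (25.5, next 17.7). Mouse 23-1 was highest in Jup (77.2 CPM, next 65.4) and Rfc1 (43.9, next 40.6) and lowest in Itpr1 (1759, next 1826), and mouse 13-3 was highest in Gadd45a (3.41, next 2.61) and lowest in Pcdhb19 (16.9, next 18.4). Among the Q140 mice, mouse 17-1 was highest in Htr2c (129 CPM, next 107) and AW551984 (7.21, next 5.00) and lowest in Ptpn7 (3.52, next 5.44). Mouse 14-1 was highest in Scn4b (1169 CPM, next 1059), mouse 21-5 highest in Pkp2 (15.6, next 10.1) and lowest in Jup (40.7, next 51.6), mouse 15-1 highest in Sfmbt2 (10.8, next 9.15), and mouse 14-4 lowest in Slc8a2 (297, next 317).

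The effect of Q140 differed between the striatum and cortex of the same mice by its own test, positive in 1219 genes and negative in 1694. Among genes that averaged at least 1 on the log2 CPM scale, predicted and clone-named genes apart, the striatum minus cortex difference on the log2 scale was largest in Vwa7 (-2.48), Sec14l3 (-2.24), Cpne9 (-2.20), Clspn (-1.93) and Ddit4l (-1.73) on the negative side, and in Dsp (2.29), Sfmbt2 (1.95), Dsg2 (1.63), AW551984 (1.53) and Fam196b (1.42) on the positive side.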

How the results depend on the processing

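Direction was stable: 0 genes were called opposite to the reported call under any alternative run for the Q140 effect. The count of higher genes, 2819, was 5141 and 5156 by limma on log2 FPKM plus 0.1 and plus 1 (lower 1749 and 1764), which moves the share of higher calls to 74.6% and 74.5%, and 1851 at an adjusted p of 0.01. At that threshold the tissue difference was positive in 674 and negative in 1069 genes. With the animal as replicate block it was positive in 1478 and negative in 2051 genes. With the animal number prefix as replicate block, which replaces the sex term, 2089 genes were higher and 2127 lower. Leaving out 1 library gave 2598 to 2755 higher and 2437 to 2541 lower genes, and leaving out the 2 shallowest Q140 libraries 2516 and 2343. DESeq2 gave 2577 and 2735. The differences from Msh6+/+ and Msh6-/- and between the sexes called 0 genes under every alternative run for them, and the 16-library, FPKM and leave-one-out fits were not run for the sexes. Of the values of named genes, 9 of 156 lost their call with the prefix block, 4 of 167 at 0.01, 3 of 153 on each FPKM scale and 0 to 3 of 156 without any single library. These totals include values that were not called to begin with and so had no call to lose. Of the lowest of 4 classes of genes by level 13.28% were called, against 47.9% of the highest, and depth itself was not varied.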

Other observations

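Genes were also counted by their annotated class, to be read against the 30.9% of all genes called. Of 14305 protein-coding genes tested, 2536 were higher and 2340 lower, and of 436 lincRNA genes 58 were higher and 50 lower. Of 414 antisense genes 51 were higher and 52 lower, and reads of these cannot be told apart from those of their partners where the counting did not use strand.

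Ankrd35, chosen after its values were seen, had one of the larger falls outside the lists, from 14.8 to 21.2 CPM (median 16.5) in Msh6+/- mice to 4.02 to 8.42 CPM (median 5.39) in Q140 Msh6+/- mice, without overlap (log2 fold change -1.57 ± 0.09). In cortex its log2 fold change was 0.08 ± 0.08. Pcdh20, a protocadherin outside the clusters and also chosen after its values were seen, rose from 6.28 to 9.71 CPM (median 7.14) to 12.9 to 22.7 CPM (median 17.0), without overlap (1.21 ± 0.10), while its log2 fold change in cortex was -0.08 ± 0.09. Ryr1, a calcium release channel, was lower by more than other members of the calcium list (-1.47). The unnamed transcript Gm6089 was at 0.256 to 6.79 CPM in Q140 mice and 0.111 to 0.876 CPM in controls, with 2 of the Q140 mice (15-1 and 16-4) within the control range.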
